A study of Schizosaccharomyces pombe with 36 samples.

Results

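Histone genes of the fission yeast Schizosaccharomyces pombe are described here across a series that compared slr1 knockout cells with wild-type (WT) cells by sequencing of RNA labelled with 4-thiouracil. The members are 10 genes taken by their systematic identifiers, of 7268 S. pombe genes counted: hta1 (SPCC622.08c) and hta2 (SPAC19G12.06c) for histone H2A, htb1 (SPCC622.09) for H2B, hht1 (SPAC1834.04), hht2 (SPBC8D2.04) and hht3 (SPBC1105.11c) for H3, hhf1 (SPAC1834.03c), hhf2 (SPBC8D2.03c) and hhf3 (SPBC1105.12) for H4, and pht1 (SPBC11B10.10c) for the variant H2A.Z. The first 9 are the canonical genes. All 10 were counted in every library and passed the filter on low counts.

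Histones H2A, H2B, H3 and H4 form the protein core around which DNA is wrapped in the nucleosome, and a cell that copies its DNA needs new histones for the new copy. In fission yeast the canonical histone mRNAs are made mainly while DNA is replicated. The GATA-type factor Ams2 and the telomere-repeat-binding factor Teb1 are known to act on a short promoter element, the AACCCT box, and the HIRA complex is known to hold the genes down outside S phase. H2A.Z replaces H2A at many gene starts, is inserted by the Swr1 complex, and is not tied to replication in the same way. Yeast histone mRNAs carry poly(A) tails, unlike most histone mRNAs of animals.

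The knockout cells, strain yMAB001, were slr1- and so lack Slr1, a La-related RNA-binding protein and homologue of LARP1. They were set against WT cells of strain yAS99, and each genotype was represented by 1 strain. Each genotype had 3 cultures, started from single colonies in liquid medium after growth on YES plates, given 4-thiouracil and sampled over time. This uracil analogue is built into new RNA and lets that RNA be pulled down with biotin and streptavidin. Each culture gave 5 labelled libraries, named by time points 5, 20, 50, 105 and 125 whose unit the sources used here do not give, and 1 library called steady state, which made 36 libraries in 12 groups of 3. The kit used for all of them selects mRNA and keeps strand.

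Library totals ran from 921427 to 6517092 counts over the S. pombe genes. Transcripts of slr1 (SPAC1527.03) reached 13.5 to 25.9 CPM (read counts per library size after TMM scaling, which lines up the bulk of the genes between libraries) in knockout and 111 to 144 CPM in WT steady-state libraries, and 3.26 to 17.2 CPM in knockout and 111 to 249 CPM in WT labelled libraries, so that the genotypes did not overlap in any fraction. The TMM factors ran from 0.738 in the steady-state library of WT culture 2 to 1.33 in the labelled 5 library of WT culture 1, so a level or change in CPM is relative to most genes and is not a share of the library. Values scaled to library totals, an alternative chosen after the data had been seen, are given where they move a result. The libraries also held counts on human and fly genes, whose role the sources used here do not give. By the ratio of fly to human counts at steady state, the cultures fell into 2 sets: 1.85 to 2.15 in set B, made of knockout cultures 1 and 3 and WT culture 3, and 0.990 to 1.07 in set A, made of knockout culture 2 and WT cultures 1 and 2. Set and genotype were therefore crossed but not balanced, and values within sets are given where they bear on a result.

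All but hta2 of the canonical genes lie as divergent pairs, each pair reading outward from a short shared stretch of DNA, and these stretches are shown because they hold the feature that the canonical genes share and pht1 lacks. The sequences and positions are from the RefSeq assembly ASM294v3; the sources used here do not give the build behind the deposited counts, and no coordinate of the deposited data was used. Capitals mark matches to AACCCT on the strand shown or to its complement AGGGTT, the only motif searched. Between the transcript starts of hta1 and htb1 lie 177 bases, chrIII:1412182-1412358, plus strand:
hta1-htb1: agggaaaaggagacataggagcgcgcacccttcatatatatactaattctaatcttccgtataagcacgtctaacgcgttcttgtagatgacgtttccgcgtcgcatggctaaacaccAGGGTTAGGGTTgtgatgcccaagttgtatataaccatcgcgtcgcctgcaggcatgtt
The stretch between hhf1 and hht1 has 132 bases, chrI:4699600-4699731, plus strand:
hhf1-hht1: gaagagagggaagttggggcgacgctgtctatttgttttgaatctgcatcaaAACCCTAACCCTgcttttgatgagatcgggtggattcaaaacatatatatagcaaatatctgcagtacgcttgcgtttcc
The stretch between hhf2 and hht2 has 134 bases, chrII:1364985-1365118, plus strand:
hhf2-hht2: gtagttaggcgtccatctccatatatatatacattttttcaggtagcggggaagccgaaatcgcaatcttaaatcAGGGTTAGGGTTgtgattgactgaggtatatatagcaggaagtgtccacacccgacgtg
The stretch between hht3 and hhf3 has 201 bases, chrII:3529566-3529766, plus strand:
hht3-hhf3: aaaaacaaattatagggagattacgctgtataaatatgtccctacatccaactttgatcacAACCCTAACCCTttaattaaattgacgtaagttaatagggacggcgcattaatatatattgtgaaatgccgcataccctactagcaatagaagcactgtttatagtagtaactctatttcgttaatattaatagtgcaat
The 250 bases before the start of hta2, which stands alone, are chrI:4053319-4053568, minus strand:
hta2: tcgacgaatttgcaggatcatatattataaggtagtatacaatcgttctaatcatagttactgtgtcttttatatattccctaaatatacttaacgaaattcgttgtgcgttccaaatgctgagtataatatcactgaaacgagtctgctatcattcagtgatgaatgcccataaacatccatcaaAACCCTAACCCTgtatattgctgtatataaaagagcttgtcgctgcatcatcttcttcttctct
The 250 bases before the start of pht1 are chrII:1503445-1503694, minus strand:
pht1: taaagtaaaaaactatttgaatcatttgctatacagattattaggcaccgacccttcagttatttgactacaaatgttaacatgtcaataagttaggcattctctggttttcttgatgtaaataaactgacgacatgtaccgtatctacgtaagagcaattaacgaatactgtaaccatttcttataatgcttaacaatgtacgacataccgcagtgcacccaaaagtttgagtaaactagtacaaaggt

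Each canonical promoter held the box as a tandem pair, AACCCTAACCCT or its complement AGGGTTAGGGTT, and the pht1 promoter held no match to either spelling. A divergent pair shares its single tandem. Among 5112 promoters of 250 bases, 8.29% held AACCCT on either strand, 0.646% held at least 2 matches and 0.391% held the tandem, which is 20 promoters, of which 9 belong to the canonical genes. Counted back from the annotated transcript start, the 2 boxes began 53 and 59 bases before htb1 and likewise before hht2, the closest, and 134 and 140 bases before hhf3, the farthest. The tandem thus stood nearer to htb1 than to hta1, and nearer to hht3 than to hhf3. A match of letters is a description and shows no binding.

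**Figure D1:**
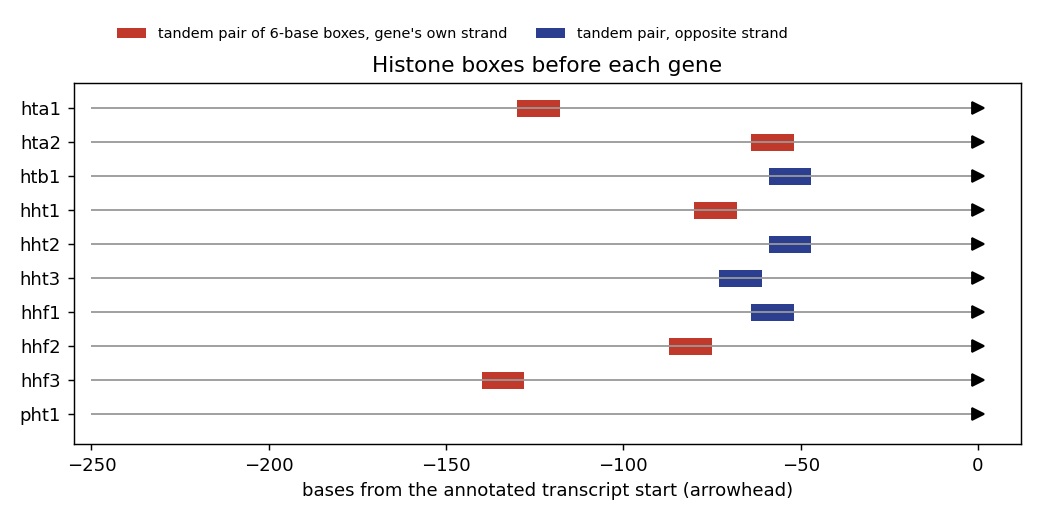
Position of the tandem AACCCT boxes in the 250 bases before each histone gene's annotated transcript start (x axis, bases; arrowhead at the start), red on the gene's own strand and blue on the opposite strand. All 9 canonical genes have a tandem pair, and pht1 has none.

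At steady state H3 and H4 mRNAs stood highest per length and pht1 lowest. On the scale of CPM per 1000 bases of annotated transcript, the 3 H3 genes together reached 5963 ± 692 in knockout and 6157 ± 1782 in WT cultures (SD, n = 3 each). The 3 H4 genes together reached 4723 ± 949 in knockout and 4351 ± 1100.0 in WT cultures. The 2 H2A genes together stood at 1814 ± 249 in knockout and 1930.2 ± 852 in WT cultures, and htb1, the only H2B gene, at 714 ± 176 in knockout and 729 ± 163 in WT cultures. The H2A.Z gene pht1 stood at 86.9 ± 28.4 in knockout and 93.5 ± 45.7 in WT cultures. Summed H3 and H4 levels thus lay above that of H2B by more than the spread between cultures. Transcript lengths from the annotation enter these values, and that of htb1, 1319 bases, is the longest of the 10. In the order of single genes in WT, hht2, hht3, hhf1, hht1, hhf3, hta2, hhf2, htb1, hta1 and pht1, neighbours differed by less than the larger of their SDs, except at the steps from hhf2 to htb1 and from hta1 to pht1. The same 2 steps exceeded the SDs in the knockout, where hhf1 ranked above hht3.

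Reads of the paralogs could be told apart for the most part. The H3 coding sequences are 88.3 to 92.7% identical and those of H4 91.4 to 93.3%, and of all 50-base stretches of a member's transcript 1.05% in hhf3, 0.803% in hhf2 and 0% in the other 8 occurred elsewhere in the genome. The sources used here do not give the strand setting of the counting, and several members have annotated genes on the opposite strand. The antisense RNA SPNCRNA.1194 covers all of hta1 and SPNCRNA.1611 all of hhf3, with medians of 4.42 and 1.46 CPM without TMM scaling over the 36 libraries. The protein-coding gene SPCC622.10c lies opposite 258 bases of htb1, with a median of 80.2 and a highest value of 185 CPM on that scale, and SPBC1105.10 opposite 46 bases of hht3, with a median of 60.9. SPNCRNA.5147 covers all of hhf2 on the opposite strand, and SPNCRNA.5214 covers 722 bases of pht1, the member with the lowest level. SPNCRNA.4110 lies opposite 414 bases of hht1, SPNCRNA.3808 opposite 242 bases of hta2 and SPNCRNA.7358 opposite 151 bases of htb1. These antisense RNAs were not analysed here. Values of these members would hold reads of both strands if strand was not used.

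The question of the genotype comparison is whether loss of Slr1 altered histone mRNA. No histone gene was called different between knockout and WT in any of the 6 fractions. With edgeR's quasi-likelihood test and Benjamini-Hochberg adjustment over all genes, 0 of 10 members passed an adjusted p of 0.05 in each fraction, by DESeq2 likewise 0, and the background was 0.0186% of 5371 genes at steady state and 0.0172% of 5812 genes at each labelled time point, which is slr1 itself. At an unadjusted p below 0.05 edgeR found 1 member value of the 60, htb1 at labelled 20. Scaled to library totals, edgeR also called 0 members in each fraction. In bulk RNA a change in the share of cells that carry an mRNA and a change in its amount per cell cannot be told apart.

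The summed level of the 9 canonical genes was 10721 ± 236 CPM in knockout and 10716 ± 2711 CPM in WT cultures at steady state (SD, n = 3 each). The sums were 10831, 10881 and 10450.2 CPM in knockout cultures 1 to 3, against 8499, 13738 and 9912 CPM in WT cultures 1 to 3. The knockout values lay inside the WT range. On this TMM scale WT cultures spread 1.62-fold between the lowest and the highest, and the knockout cultures lay closer together. As a share of all S. pombe counts the same genes made up 1.02 ± 0.03% in knockout and 0.97 ± 0.04% in WT cultures, and the WT spread was 1.09-fold.

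The H2A gene hta1 had 640.0, 746 and 565 CPM in knockout cultures 1 to 3, against 534, 1097 and 578 CPM in WT cultures 1 to 3 at steady state. Its partner in H2A, hta2, had 999.5, 1193 and 917 CPM in knockout, against 773, 1620.1 and 805 CPM in WT cultures. Both were highest in WT culture 2, and the genotypes overlapped. The log2 difference, knockout over WT, was −0.15 (SE 0.34) for hta1 and −0.01 (SE 0.36) for hta2, smaller than its error in both. For htb1 the steady-state levels were 758, 1202 and 863 CPM in knockout, against 1173, 968 and 742 CPM in WT cultures, with knockout culture 2 and WT culture 1 at the top and a log2 difference of −0.01 (SE 0.33).

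At labelled 20, htb1 had 1184, 1218 and 1284 CPM in knockout, against 864, 1086 and 854 CPM in WT cultures. It was the single one of the 60 member values in which the genotypes did not overlap, beside 4.00% of the values of all genes over the 6 fractions and 7.20% of genes at labelled 20, so the members' count lay below the background. The log2 difference was 0.42 (95% interval 0.00 to 0.84, unadjusted p = 0.0492, adjusted p = 0.999 by edgeR), so the value did not pass over all genes, of which 163 had an unadjusted p below 0.05 there. Its log2 differences at labelled 5, 50, 105 and 125 were 0.08, 0.21, 0.00 and 0.02, each with an SE of 0.20.

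The H3 gene hht1 had 1763, 1008 and 1572 CPM in knockout, against 827, 1755 and 1374 CPM in WT cultures at steady state. The second H3 gene, hht2, had 1331, 2457 and 1133 CPM in knockout, against 1567, 2149.8 and 1368 CPM in WT cultures. The genotypes overlapped in both, and the cultures ranked differently: knockout culture 2 was the highest of the 6 for hht2 and the second lowest for hht1. The third, hht3, had 1427, 1503 and 1376 CPM in knockout, against 1307, 2309 and 1313 CPM in WT cultures, with WT culture 2 far above the other 5. The log2 differences were 0.16 (SE 0.39), −0.02 (SE 0.39) and −0.17 (SE 0.34) for hht1, hht2 and hht3.

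The H4 gene hhf1 had 1988, 1195 and 2225 CPM in knockout, against 921, 1962 and 2053 CPM in WT cultures at steady state. Low values in knockout culture 2 and WT culture 1 set it apart from hhf2, which had 778, 1001 and 758 CPM in knockout, against 793, 1019 and 692 CPM in WT cultures. The third H4 gene, hhf3, had 1145, 576 and 1042 CPM in knockout, against 605, 858 and 987 CPM in WT cultures, and like hhf1 it was low in knockout culture 2 and WT culture 1. The log2 differences were 0.16 (SE 0.42), 0.04 (SE 0.30) and 0.20 (SE 0.37) for hhf1, hhf2 and hhf3. The H2A.Z gene pht1 had 87.6, 149 and 87.6 CPM in knockout, against 97.9, 179.8 and 70.8 CPM in WT cultures, a log2 difference of −0.08 (SE 0.35). It was highest in culture 2 of each genotype.

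Over the 6 fractions the members' median log2 difference was −0.01 at steady state and 0.05, 0.09, 0.00, −0.08 and 0.02 at labelled 5, 20, 50, 105 and 125, beside all-gene medians between −0.01 and 0.01. Single values ran from −0.37 for hht2 to 0.42 for htb1, both at labelled 20. The 95% intervals of the single genes reached down to −1.05, for hht2 at labelled 20, and up to 1.28, for hhf1 at labelled 5. Their width differed by gene: at labelled 125 they ran from −0.39 to 0.44 for htb1 and from −0.77 to 1.27 for hhf1. Changes of a size inside a gene's interval were not excluded with these cultures. The sign of the median was not stable: it changed in 16 of the 36 fits that left out 1 culture, in 2 to 4 of the 6 fits of each fraction, with WT and knockout cultures among those left out. At labelled 5 it was −0.12 without WT culture 1, with 0 of 10 members above 0, and 0.46 without WT culture 2, with 10 of 10 above 0; at labelled 105 it was −0.30 with 0 of 10 above 0 without WT culture 1 and 0.09 with 9 of 10 above 0 without WT culture 2. Members remained uncalled in these fits.

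**Figure D2:**
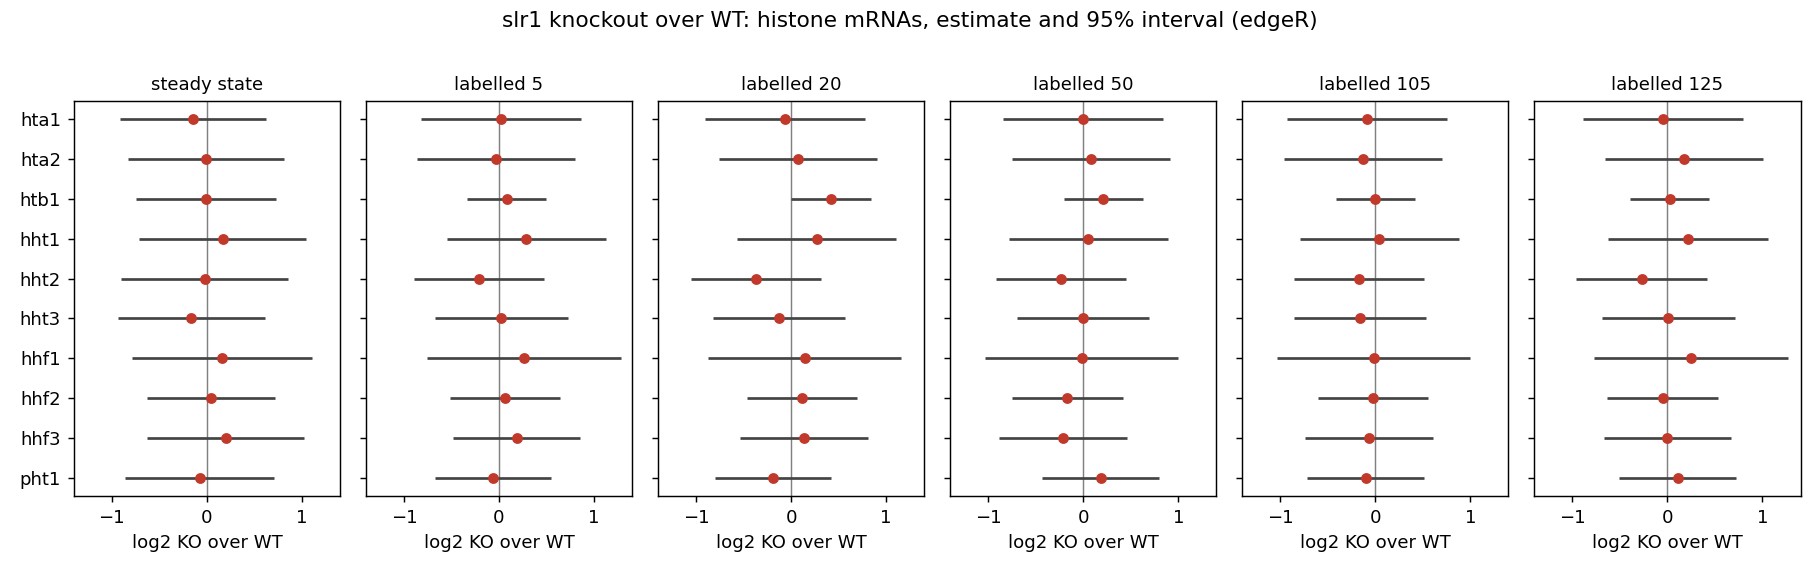
Log2 difference of each histone mRNA, slr1 knockout over WT (x axis), with 95% intervals from edgeR, in 6 fractions. Every interval holds 0 except that of htb1 at labelled 20, whose lower end is 0.00.

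On the TMM scale the canonical genes were on average lowest in WT culture 1 and highest in WT culture 2. Of the 54 values of a canonical gene in a fraction, WT culture 2 was the highest of the 6 cultures in 36 and WT culture 1 the lowest in 35. The mean log2 deviation of the canonical genes from the mean of the 6 cultures was −0.05, 0.01 and 0.10 in knockout cultures 1 to 3, against −0.50, 0.46 and −0.02 in WT cultures 1 to 3. By fraction it ran from −0.75 to −0.30 in WT culture 1 and from 0.31 to 0.58 in WT culture 2. The TMM-scaled canonical sum of WT culture 2 was 2.48 times that of WT culture 1 at labelled 5, and between 1.57 and 2.31 times in the other 5 fractions. The gap was narrower without TMM factors. As a share of all S. pombe counts, the canonical genes of WT culture 2 stood at 2 times those of WT culture 1 at labelled 5, at 1.57 and 1.67 times at labelled 20 and 50, and at 1.089, 1.233 and 1.062 times at steady state, labelled 105 and labelled 125. WT culture 3 had the highest share of the 6 cultures at labelled 105 and knockout culture 3 at steady state and labelled 125. On the scale of library totals the mean deviation was −0.27 in WT culture 1 and 0.20 in WT culture 2, with 26 of 54 values lowest and 26 of 54 highest. Over all libraries the share ran from 0.779 to 1.56%, both ends being WT libraries of labelled 5.

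Lists of other genes are given beside these values, with no test of the difference. In WT culture 1 the mean log2 deviation was 0.00 for 13 genes of the G1/S factor MBF, −0.11 for the replication fork genes, −0.05 for genes of mitosis and cell separation, 0.23 for the histone gene regulators and 0.47 for cnp1, the centromeric H3 variant. In WT culture 2 these were 0.03, −0.05, 0.21, −0.09 and −0.01. The mitosis list stood at 0.29 in knockout culture 2 and −0.29 in WT culture 3, where the canonical genes stood at 0.01 and −0.02. Genes of H2A.Z exchange deviated by 0.20 in WT culture 1 and −0.32 in WT culture 2, opposite in sign to the histone genes. Histone chaperones (0.09 and −0.20) and histone modifiers (0.06 and −0.15) had these signs too, as had the regulators and cnp1. The MBF, replication fork and mitosis lists were not opposite in both cultures beyond 0.00. All these values are on the TMM scale. The part of the lists in the histone result was not tested.

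The members did not share 1 pattern across cultures. The spread between cultures was greatest for hhf1, with a residual SD of 0.640 on the log2 scale after group means were removed, above 90.6% of the 4989 genes with at least 10 CPM, and least for htb1, with 0.232, above 17.3% of them. The median was 0.431 over the 10 members, beside 0.346 over all these genes, and culture accounted for a median of 84.8% of the members' residual variance, beside 68.5%. For htb1 it accounted for 23.5%. WT culture 1 lay lowest for hhf1, at −0.97, and for hht1, at −0.84, while hht2, hhf2 and htb1 deviated there by −0.17, −0.17 and −0.13.

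**Figure D3:**
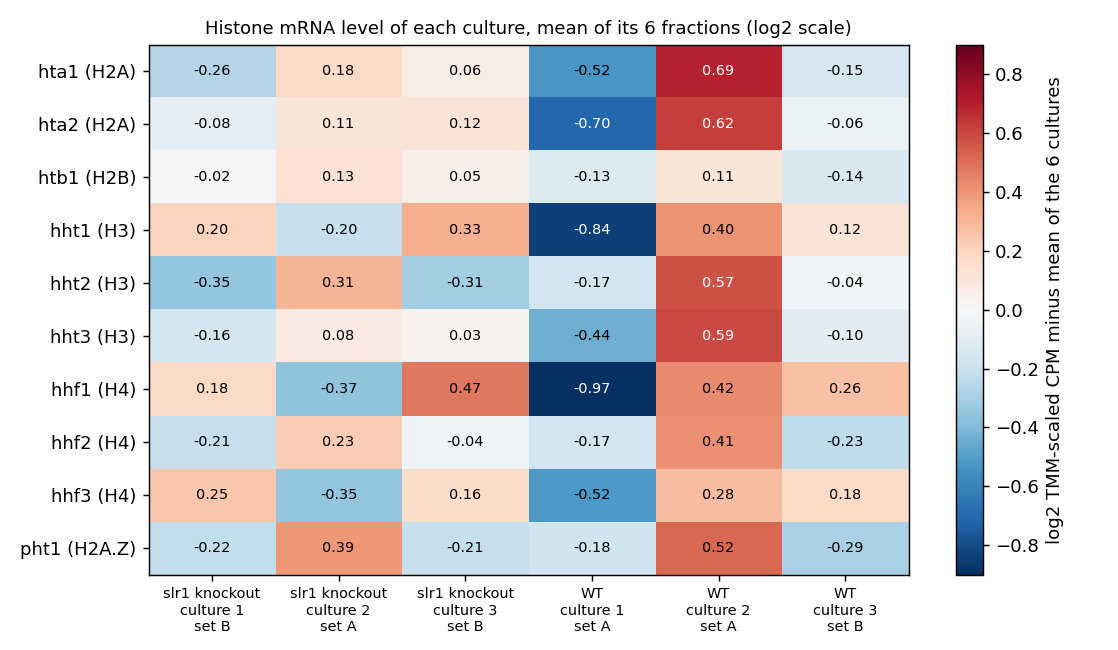
Mean over 6 fractions of each culture's log2 TMM-scaled CPM minus the mean of the 6 cultures (colour and printed value), by gene (rows) and culture (columns, knockout left). WT culture 2 is above 0 for all 10 genes and WT culture 1 below 0 for all 10 (scaled to library totals, htb1 is below 0 in WT culture 2, and htb1, hht2, hhf2 and pht1 are above 0 in WT culture 1), and hht1, hhf1 and hhf3 are below 0 in knockout culture 2 where the other 7 are above 0.

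The 2 sets of cultures were also compared, as a check of a split that the labels do not name. At steady state hhf3, hhf1 and hht1 differed, set B over set A, by 0.73 (SE 0.31), 0.71 (SE 0.40) and 0.46 (SE 0.40) on the log2 scale, and pht1, hht2 and htb1 differed by −0.82 (SE 0.25), −0.67 (SE 0.34) and −0.50 (SE 0.29). None of the 10 members passed, beside 12.9% of all genes: the smallest edgeR adjusted p was 0.0589, for pht1, 2 members had an unadjusted p below 0.05, and DESeq2 called 0. This count, like the share of all genes called, rose when the fit left out WT culture 2. Without it 6 of 10 members passed (background 38.4% of all genes): hhf1 (0.98, adjusted p = 0.00190), hhf3 (0.84, 0.00305) and hht1 (0.74, 0.0127) higher in set B, and pht1 (−0.63, 0.00228), htb1 (−0.59, 0.0323) and hht2 (−0.65, 0.0325) lower. Without WT culture 1, pht1 alone passed (−0.96, adjusted p = 0.00396), 1 of 10 members beside 24.3% of all genes. The share of reads without a unique place ran from 16.0 to 48.0% over these 6 libraries; its part in the difference was not tested.

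**Figure D4:**
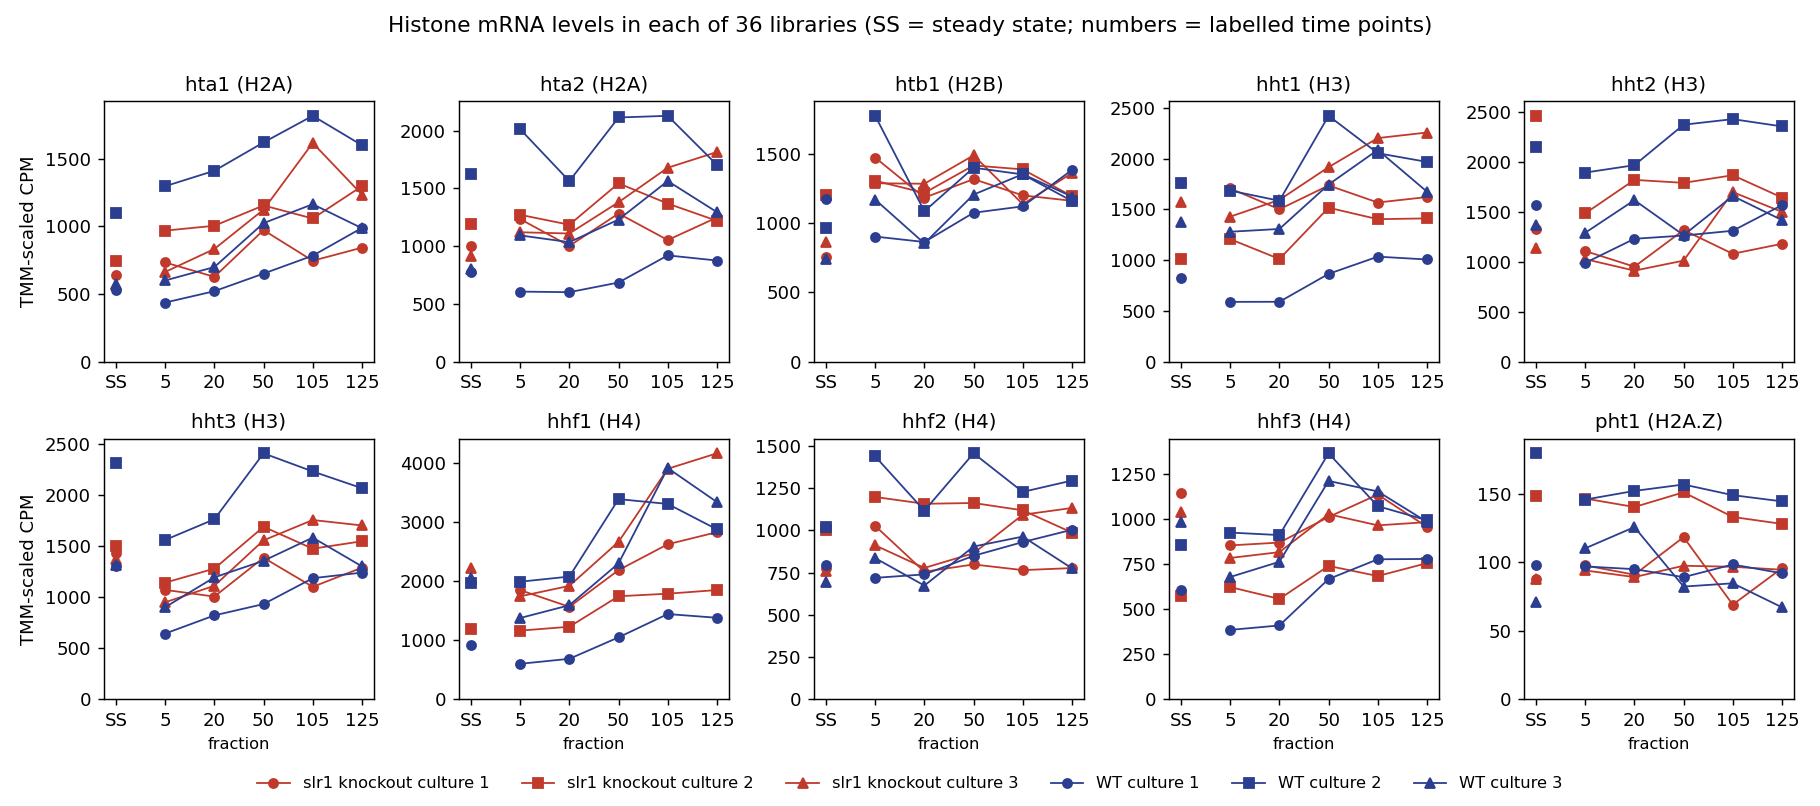
TMM-scaled CPM (y axis, from 0) of each histone gene in the steady-state library (SS) and at the 5 labelled time points (x axis, evenly spaced), knockout red and WT blue, 1 symbol per culture, lines joining the labelled libraries of a culture. WT culture 2 lies high and WT culture 1 low for most canonical genes, and hhf1 climbs to 4158 CPM in knockout culture 3.

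Labelled RNA at time point 5 was set against steady-state RNA. The 2 kinds of library differed in other ways too, so the comparison cannot single out the age of the RNA. Reads not aligned uniquely were 16.0 to 48.0% in steady-state libraries, against 5.82 to 10.4% in labelled libraries. The ratio of fly to human counts was 0.990 to 2.15 at steady state, against 0.00134 to 0.0330 in labelled libraries. The part of these library differences in the values of histone genes was not tested. Without a term for culture no member differed: 0 of 10 passed in the knockout (background 26.7%) and 0 of 10 in WT (background 21.8%), by edgeR and by DESeq2. At an unadjusted p below 0.05 edgeR had 1 member in the knockout, htb1 (background 38.5% of all genes), and 0 in WT (background 35.1%), shares below those of all genes. Both libraries of such a comparison come from the same cultures. With culture as a block, hht3 was lower in labelled RNA in both genotypes, and 2 of 10 members passed in the knockout (background 54.1%) and 3 of 10 in WT (background 52.9%), shares below those of all genes.

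The H3 gene hht3 had 1069.9, 1141 and 948 CPM at labelled 5, against 1427, 1503 and 1376 CPM at steady state in knockout cultures 1 to 3. In WT cultures it had 643, 1558 and 901 CPM at labelled 5, against 1307, 2309 and 1313 CPM at steady state. Its labelled level was the lower in 6 of 6 cultures. The blocked log2 difference was −0.45 (SE 0.14, edgeR adjusted p = 0.00804) in the knockout and −0.72 (SE 0.14, adjusted p = 1.0e-04) in WT, and it passed with each culture left out in turn. Also lower in WT were hhf1 (−0.39, SE 0.16, adjusted p = 0.0368) and hhf3 (−0.35, SE 0.15, adjusted p = 0.0437). Both differences were above 0 with library totals. The calls were lost without WT culture 1 (adjusted p = 0.234 and 0.239) and without WT culture 3 (0.226 and 0.296), and hhf3 also without knockout culture 1 (0.0513) or 3 (0.0627).

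The H2B gene was the only member called higher by edgeR with the block. In knockout cultures htb1 had 1473, 1306 and 1288 CPM at labelled 5, against 758, 1202 and 863 CPM at steady state. The blocked log2 difference was 0.54 (SE 0.18, adjusted p = 0.0114), and the call was lost without knockout culture 1 (0.31, adjusted p = 0.276) or 3 (0.53, adjusted p = 0.0593). In WT it was 0.39 (SE 0.18, adjusted p = 0.0657), higher at labelled 5 in 2 of the 3 cultures. With libraries scaled to their human counts and the block, no member was called in the knockout, and in WT htb1 had −0.32, beside an all-gene median of −0.65. The direction of several members at labelled 5 depended on the scaling. With library totals and the block, the median of all genes was 0.37 in the knockout and 0.45 in WT, and hhf1 and hhf3 were above 0 in both genotypes, uncalled. The difference of hht3 was then −0.11 (SE 0.13, adjusted p = 0.462) in the knockout and −0.31 (SE 0.13, adjusted p = 0.0391) in WT. That of htb1 was 0.86 (SE 0.19, adjusted p = 3.6e-04) and 0.80 (SE 0.19, adjusted p = 7.7e-04), and 6 of 10 members were called in each genotype (background 59.7% in the knockout and 62.0% in WT), all higher but hht3 in WT. Without the block htb1 and hhf2 were called higher in each, 2 of 10 members (background 33.2% and 31.9%).

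No genotype difference in labelled 5 over steady state was called for any of the 10 members by edgeR, with or without the block, and the background was 0 of 5823 genes. At an unadjusted p below 0.05 there were 0 members and, without the block, 19 genes, and DESeq2 called 0 members.

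Between labelled 5 and labelled 125, with labelling continuing, the H4 gene hhf1 rose relative to most genes in both genotypes once culture was a term of the fit. The H3 gene hht3 and the H2A gene hta1 also passed in both, though in the knockout not with every culture left out, hhf3 and hht1 passed in WT, and hta2, htb1, hht2, hhf2 and pht1 passed in neither. Scaled to library totals, hhf1 alone was called higher. Without a term for culture 0 of 10 members passed in the knockout (background 8.48%) and 0 of 10 in WT (background 8.76%), by edgeR and DESeq2. At an unadjusted p below 0.05 there were 0 members by edgeR and 1 in each genotype by DESeq2. With culture as a block 3 of 10 were higher at 125 in the knockout (background 17.5% of 5823 genes higher) and 5 of 10 in WT (background 20.2%), and none was lower. The members' median log2 change was 0.26 in the knockout and 0.42 in WT with the block, beside −0.07 for all genes in each.

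On the scale of library totals the picture was narrower. The canonical genes made up 1.23 ± 0.18% of S. pombe counts at labelled 125, against 1.25 ± 0.12% at labelled 5 in knockout cultures, and 1.21 ± 0.07% at labelled 125, against 1.17 ± 0.39% at labelled 5 in WT cultures (SD, n = 3 each). The share was higher at 125 in 3 of 6 cultures. With library totals and the block the median change of all genes was −0.43 in the knockout and −0.44 in WT, and the members' median lay 0.33 and 0.48 above it. hhf1 was then the 1 member called higher, by 0.48 (SE 0.16, adjusted p = 0.0120) in the knockout (background 9.17% higher) and by 0.64 (SE 0.16, adjusted p = 0.00133) in WT (background 10.5%), above 0 in 6 of 6 cultures. The changes of hht3 were 0.15 and 0.26 and those of hta1 0.13 and 0.37 in the knockout and WT, uncalled. The H2A.Z gene pht1 was called lower in both genotypes (−0.44, adjusted p = 0.00710 in the knockout and −0.62, adjusted p = 2.1e-04 in WT), and hhf2 (−0.48, adjusted p = 0.00490) and htb1 (−0.50, adjusted p = 0.0287) in the knockout. The knockout values of pht1, hhf2 and htb1 lay near the all-gene median of −0.43, so they show no fall relative to most genes. No background of lower calls is given for this scale, so the lower calls, that of pht1 in WT among them, are not read as a result about the members. The values by gene that follow are on the TMM scale.

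The H4 gene hhf1 had the largest blocked change of the 10 in each genotype. Its means at labelled 5, 20, 50, 105 and 125 were 1582 ± 369, 1569 ± 346, 2196 ± 459.9, 2767 ± 1064 and 2943 ± 1160.0 CPM in the knockout (SD, n = 3) and 1321 ± 695, 1449.6 ± 705, 2243 ± 1169, 2884 ± 1286 and 2528 ± 1023 CPM in WT. At labelled 125 the knockout cultures had 2825, 1847 and 4158 CPM, against 1845, 1161 and 1740.4 CPM at labelled 5. In WT cultures hhf1 had 1378, 2873 and 3334 CPM at labelled 125, against 599.9, 1988 and 1374 CPM at labelled 5. It was higher at 125 in 6 of 6 cultures. The blocked log2 change was 0.85 (SE 0.16, edgeR adjusted p = 1.0e-04) in the knockout and 1.004 (SE 0.16, adjusted p = 8.8e-06) in WT, and it passed with each culture left out in turn.

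The H3 gene hht3 passed in both genotypes. At labelled 125 it had 1287, 1545 and 1700.1 CPM, against 1069.9, 1141 and 948 CPM at labelled 5 in knockout cultures. In WT cultures it had 1239, 2064 and 1300.2 CPM at labelled 125, against 643, 1558 and 901 CPM at labelled 5. Each culture was higher at 125. The blocked log2 change was 0.51 (SE 0.14, adjusted p = 0.00485) in the knockout, lost without knockout culture 3 (0.35, adjusted p = 0.0994), and 0.63 (SE 0.14, adjusted p = 6.5e-04) in WT, where it passed in all 6 fits with a culture left out.

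The H2A gene hta1 had means of 789 ± 159.9, 822 ± 189, 1084 ± 97.6, 1140.3 ± 441 and 1125 ± 246 CPM at the 5 time points in the knockout (SD, n = 3) and of 778 ± 456, 877 ± 471, 1099 ± 489, 1255 ± 523 and 1192 ± 353 CPM in WT. It too was higher at 125 than at 5 in 6 of 6 cultures. The blocked log2 change was 0.49 (SE 0.18, adjusted p = 0.0319) in the knockout, lost without knockout culture 2 (adjusted p = 0.0719) or 3 (0.188). In WT it was 0.74 (SE 0.18, adjusted p = 0.00173), lost without WT culture 1 (0.51, adjusted p = 0.0930).

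In WT hhf3 (0.55, SE 0.15, adjusted p = 0.00341) and hht1 (0.46, SE 0.14, adjusted p = 0.0112) also passed, and both lost the call without WT culture 1 (adjusted p = 0.191 and 0.220). WT culture 1 was the lowest in these genes at labelled 5, with 385 CPM of hhf3 and 589.6 CPM of hht1. In the knockout their changes were 0.26 (SE 0.15) and 0.27 (SE 0.14) and did not pass. hht2 was higher at 125 in 6 of 6 cultures, by 0.09 to 0.66, without passing in either genotype (adjusted p = 0.220 in the knockout and 0.0822 in WT). For hta2, 4 of 6 cultures were higher.

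For the H2B gene, the H4 gene hhf2 and the H2A.Z gene, at most 3 of 6 cultures were above 0. For htb1 the change within cultures ran from −0.61 to 0.61, with 3 of 6 cultures above 0. For hhf2 it ran from −0.40 to 0.48, with 2 of 6 above 0. The H2A.Z gene pht1 had 95.8, 128 and 94.7 CPM at labelled 125, against 97.8, 147 and 94.2 CPM at labelled 5 in knockout cultures. In WT cultures it had 92.1, 145 and 67.2 CPM at labelled 125, against 97.1, 146 and 110.3 CPM at labelled 5. Its change was above 0 in 1 of 6 cultures, and the blocked value was −0.08 (SE 0.15) in the knockout and −0.25 (SE 0.14, adjusted p = 0.155) in WT.

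Within set A the blocked fit called 0 members higher in the knockout (background 9.33%) and 6 in WT (background 20.5%), and within set B 1 in the knockout (background 14.4%) and 1 in WT (background 8.47%), hhf1 in each; set A holds 1 knockout culture and set B 1 WT culture. The share of human counts was 7.76 to 11.8% at labelled 125, against 16.9 to 18.8% at labelled 5 in knockout libraries, and 9.20 to 13.1% at labelled 125, against 18.2 to 28.5% at labelled 5 in WT libraries. When libraries were scaled to their human counts, the median change of all genes was 0.64 in the knockout and 0.95 in WT and all 10 members were above 0 in each genotype, with 0 of 10 called higher in the knockout (background 7.99%) and 6 of 10 in WT (background 23.8%). Relative to that median, the members' median was 0.29 in the knockout and 0.38 in WT. No genotype difference in the change from labelled 5 to labelled 125 was called for any of the 10 members by edgeR, with or without the block, or by DESeq2. Over all 5823 genes 0 passed and, without the block, 17 had an unadjusted p below 0.05.

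**Figure D5:**
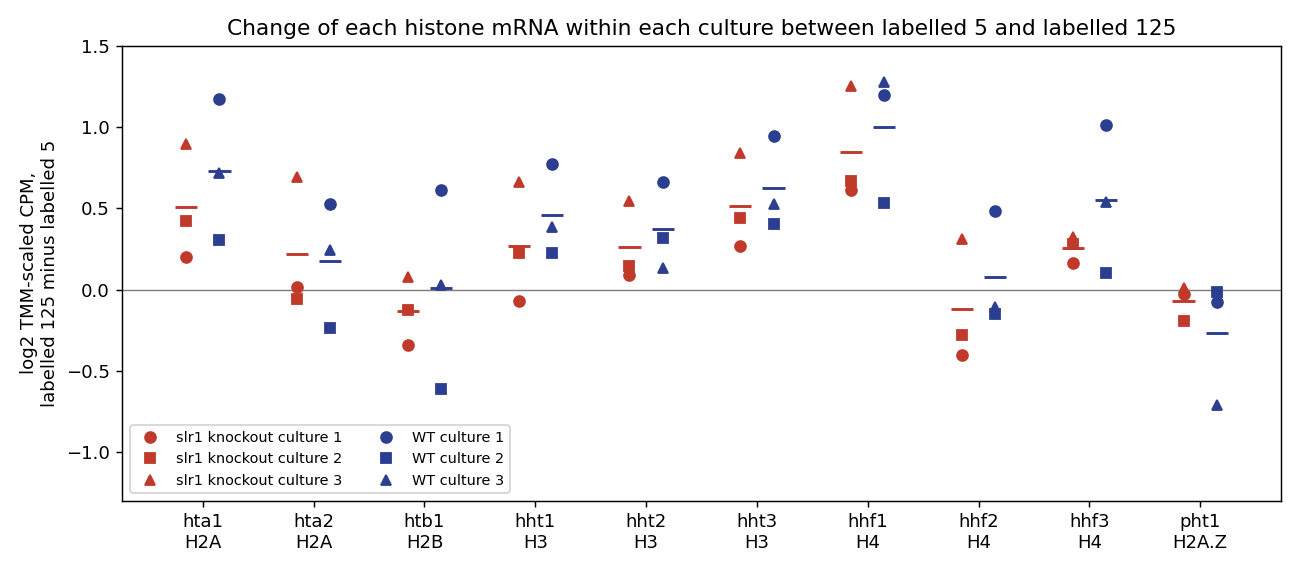
Change of log2 TMM-scaled CPM from labelled 5 to labelled 125 in each culture (points; knockout red and left, WT blue and right) with the mean of 3 (bar), by gene. For hta1, hht2, hht3, hhf1 and hhf3 all 6 cultures are above 0, and for pht1 1 of 6 is; scaled to library totals, all 6 are above 0 for hhf1 alone and none is for pht1.

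Genes that share a promoter or encode the same protein were compared within each library, where any scaling of the library cancels. This test was chosen after the data had been seen: an exact two-sided sign-flip permutation test over the 6 cultures on the change of the log2 ratio of a pair of genes from labelled 5 to labelled 125, for 11 pairs. Its smallest possible p with 6 cultures is 0.0312. Pairs share genes and are not independent. No background from pairs of other genes is given, so a ratio that moved cannot be called particular to histone genes. Many single genes moved over the same interval. With the block 17.5% of all genes were called higher and 19.7% lower in the knockout, and 20.2% and 19.8% in WT.

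Of the 4 divergent pairs, 3 changed their ratio in the same direction in every culture. The ratio of hta1 to htb1 rose by 0.68 ± 0.16 (SD, n = 6, exact permutation p = 0.0312, adjusted over the 11 pairs p = 0.0382), with means of 0.64 in knockout and 0.72 in WT cultures. The ratio of hht1 to hhf1 fell by 0.56 ± 0.21 (same p), with changes of −0.58 in knockout and −0.54 in WT cultures. That of hht2 to hhf2 rose by 0.34 ± 0.14 (same p). The ratio of hht3 to hhf3 changed by 0.17 ± 0.21, above 0 in 4 of 6 cultures (exact permutation p = 0.125, adjusted p = 0.138). So H4 gained on H3 at the hht1 and hhf1 locus, and H3 gained on H4 at the hht2 and hhf2 locus.

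Among genes for the same protein the H4 genes diverged most. The ratio of hhf1 to hhf2 rose by 0.95 ± 0.25, from 0.68 in the lowest culture to 1.39 in the highest. That of hhf1 to hhf3 rose by 0.52 ± 0.27, and that of hhf2 to hhf3 fell by 0.43 ± 0.24. Among the H3 genes hht1 and hht2 both lost ground to hht3, with changes of −0.21 ± 0.07 and −0.26 ± 0.11. The ratio of hta1 to hta2 rose by 0.42 ± 0.19. Each of these 6 ratios moved the same way in 6 of 6 cultures (exact permutation p = 0.0312, adjusted p = 0.0382). The means within sets A and B have that sign by necessity and are no further support. For hht1 to hht2 the change was 0.05 ± 0.15 (exact permutation p = 0.469, adjusted p = 0.469).

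Over the 36 libraries the log2 CPM of 2 canonical genes had a Pearson r between 0.11, for hhf3 and hht2, and 0.94, for hhf1 and hht1, with a median of 0.64 over 36 pairs. For pht1 with the canonical genes it ran from −0.16 to 0.73, with a median of 0.51. These are descriptions: libraries of a culture share that culture, and all values share the scaling of their library. Of 4979 other genes with a mean of at least 10 CPM, those with profiles most like the mean of the canonical genes were pho8 (r = 0.90), a vacuolar alkaline phosphatase, mae2 (0.90), malic enzyme, lys4 (0.90), homocitrate synthase of lysine synthesis, ade4 (0.87) of purine synthesis, and rki1 (0.87), ribose-5-phosphate isomerase. The 5 most like pht1, with r between 0.87 and 0.88, were pre10, a proteasome subunit, clc1, clathrin light chain, sdh2 of succinate dehydrogenase, pis1 of phosphatidylinositol synthesis, and fic1, a cytokinesis factor. The 2 lists share no gene.

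No listed gene that makes, places, modifies or accompanies histones was called between genotypes at steady state, where 0.0186% of 5371 genes were. Differences within the errors of these genes were not excluded. In knockout over WT 0 members were called in any of 8 lists by edgeR: 7 histone gene regulators (median log2 difference −0.05), 14 histone chaperones (−0.03), 11 genes of H2A.Z exchange (−0.02), 18 histone modifiers (0.03), the centromere variant cnp1 (0.21), 13 MBF genes (0.21), 12 tested of 13 replication fork genes (−0.06) and 13 genes of mitosis and cell separation (0.07), beside −0.01 for all genes. The smallest p in these lists was 0.0495, for yox1, a repressor partner of MBF (log2 difference 0.60, SE 0.27, adjusted p = 1). For teb1, whose product binds the AACCCT box, the difference was 0.56 (SE 0.43, unadjusted p = 0.228).

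From labelled 5 to labelled 125 the median of the regulators lay below the median of all genes and that of the histone members above it. Single members did not all follow. Without the block, pht1 lay below the all-gene median in both genotypes (−0.09 in the knockout and −0.21 in WT). In the knockout htb1 (−0.13) and hhf2 (−0.11) did too. A link between regulators and members was not tested. The median log2 change of the histone gene regulators was −0.42 in the knockout and −0.55 in WT, beside −0.08 for all genes in each. Without the block 0 of 7 passed in the knockout and 1 of 7 in WT, the HIRA subunit gene slm9, which changed by −0.49 (SE 0.17, edgeR adjusted p = 0.0669) in the knockout and by −0.55 (SE 0.17, adjusted p = 0.0343) in WT. Of all 5823 genes 127 were lower in the knockout and 121 in WT without the block. With the block 5 of 7 were lower in the knockout (background 19.7% of all genes lower) and 4 of 7 in WT (background 19.8%), and 0 were higher. Other lists also had many lower calls with the block: 6 of 13 genes of mitosis and cell separation in each genotype, 5 of 13 MBF genes in each, and 5 of 12 replication fork genes in the knockout and 4 of 12 in WT. Higher calls in each genotype numbered 0 in the mitosis list, 1 in the MBF list and 2 in the replication fork list. The call of slm9 was kept in 2 of 6 fits with a culture left out.

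Without the block 127 of 5823 genes were lower in the knockout, and in WT 121 were lower and 389 higher. Of the histone modifiers 2 of 18 were lower in the knockout, brl1 (−0.75, SE 0.23, adjusted p = 0.0406), of the ligase that ubiquitinates H2B, and lsd1 (−0.65, SE 0.15, adjusted p = 0.00537), a lysine demethylase. In WT lsd1 was lower by −0.61 (SE 0.15, adjusted p = 0.00814), and rhp6, the ubiquitin-conjugating enzyme for H2B, was higher by 0.52 (SE 0.15, adjusted p = 0.0249). Single members of 3 further lists were lower in WT: the MBF repressor nrm1 (−0.69, SE 0.18, adjusted p = 0.0141), the helicase subunit mcm4 (−0.55, SE 0.18, adjusted p = 0.0454) and the anaphase activator slp1 (−0.86, SE 0.24, adjusted p = 0.0229). No chaperone, H2A.Z exchange gene or cnp1 passed in either genotype without the block.

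These calls depended on single cultures. With each of the 6 cultures left out in turn, lsd1, nrm1 and slp1 kept the call in 4 fits, rhp6 in 3, brl1 in 2 and mcm4 in 1. Under human-count scaling, rhp6 alone of the 7 was called (1.504, adjusted p = 0.0189), the other 6 had values from −0.05 to 0.52 in the comparison in which they had been called, and relative to the median of all genes their signs were kept. Scaled to library totals, the calls of the 6 lower genes were kept and rhp6 was not called (0.15, adjusted p = 0.559). That scale also lowers the median of all genes, so lower calls come more easily there and the kept calls are no separate support. Relative to that median the 6 lower genes had values from −0.79 to −0.47, and rhp6 had 0.58. The lists' medians lay between −0.50 and −0.02 in the knockout and between −0.55 and −0.09 in WT without the block.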

How the data were processed

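The deposited files hold raw read counts per gene for each of the 36 libraries, made by the authors. The submitters' processing notes name HTSeq 0.6.1p2, the aligner STAR 2.5.2a, Trimmomatic 0.36 and R 3.5.2. The sources used here give no genome build, annotation or strand setting. Besides 7268 S. pombe genes the files list 28006 human and 17104 fly genes, used only as totals, and 5 summary lines that stayed out of library sizes and tests (reads without a feature 3.62 to 8.49% of each library, ambiguous reads 0.367 to 0.752%). Symbols and sequences came from RefSeq ASM294v3, which matched 6846 identifiers, all 10 members among them.

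Tests used edgeR 4.0.16 (R 4.3.3; quasi-likelihood F test, TMM scaling, filterByExpr at a minimum count of 10, Benjamini-Hochberg adjustment over all S. pombe genes tested, threshold 0.05), and adjusted p-values are edgeR's unless DESeq2 1.42.0 is named. Steady-state libraries were fitted alone for the genotype and set comparisons, the 30 labelled libraries together for the labelled genotype comparisons, and all 36 for comparisons of fractions. Levels are TMM-scaled CPM, so a change is relative to the bulk of S. pombe genes, and is neither a share of counts nor an amount per cell; scaling to library totals was added after the data had been seen. Deviations of libraries from their group means correlated at 0.357 to 0.809 within a culture (12 pairs) and at −0.531 to 0.612 between knockout and WT cultures of the same number (18 pairs), so the culture, which the labels give, served as the block between fractions, and numbers did not pair genotypes. The method was tested on simulated data. Named genes are all members, slr1, of each list the 2 called with the largest change or else the 2 with the smallest p (not all described), and the 5 genes most like the canonical mean and the 5 most like pht1. Members and lists were chosen with earlier results of these data known. 1 replication fork gene on the list, ctf4, was not matched, and cia1 is listed in the table as asf1.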

Additional observations from a re-analysis of the deposited data

How the results depend on the processing

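The genotype comparison gave 0 called members in each fraction, and in both genotype differences, under every alternative run: DESeq2, its size factors, no filter, human-count scaling, library totals, the replicate block, within sets, set as a covariate and each culture left out. The signs were not stable: of 900 member values of knockout over WT under alternatives 214 changed sign, all uncalled. Over all comparisons 316 of 1860 did, 40 were called, and no called value was reversed. The fits they are set against called no member, and the 1860 leave out the combinations of the block with another setting. With library totals and the block, hht1 at labelled 5 over steady state in the knockout was called at 0.36, against −5.0e-04 without either. In WT hhf1 and hhf3, called at −0.39 and −0.35 with the block, were then 0.01 and 0.05, uncalled. Human-count scaling put the all-gene median of knockout over WT at −0.29 at steady state and at 0.46, 0.11, 0.28, −0.35 and 0.13 at the labelled time points; relative to it the members' medians lay between −0.04 and 0.12.

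Other counts of called members moved with the model. Labelled 5 over steady state: in the knockout 0 without and 2 with the replicate block, and without it 2 within set B and 2 with library totals; in WT 0 without and 3 with the block, and without it 1 under human-count scaling and 2 with library totals; leaving out cultures without the block gave 0 to 1 in each genotype. With the block, in the knockout DESeq2 called 4, human-count scaling 0, library totals 6, set A 1, and leaving out cultures 1 to 3; in WT library totals called 6, set B 0 and leaving out cultures gave 1 to 3. Labelled 125 over labelled 5: in the knockout 0 without and 3 with the block, and 1 within set B without it; in WT 0 without and 5 with the block, 6 under human-count scaling and 1 within set B without it. With the block, in the knockout human-count scaling called 6, set B 1, and leaving out cultures 1 to 3. Library totals with the block called hhf1 higher and hhf2, htb1 and pht1 lower in the knockout. In WT with the block, human-count scaling called 9 (3398 of 5823 genes were called higher there), library totals 2, and leaving out cultures gave 2 to 6. Set B over set A: leaving out cultures gave 0 to 6. The cause of these shifts was not tested. The share of all genes called moved too, so the counts are not read as results about the members. For labelled 5 over steady state it was 26.7% in the knockout without the block, 54.1% with it and 59.7% with library totals as well. In WT these shares were 21.8%, 52.9% and 62.0%. Shares for the other settings are not all given here. Library totals, the combinations with the block, the ratios of gene pairs and the leave-outs under the block were chosen after seeing the data.

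With 3 cultures per genotype, the members' 95% intervals of knockout over WT within a fraction ran from −1.05 to 1.28 on the log2 scale. Those of the genotype difference in labelled 5 over steady state ran from −1.27 to 1.52 without the block. For labelled 125 over labelled 5 they ran from −1.44 to 1.35. Depth was not low: each canonical gene had at least 522 counts in every library, and pht1 at least 81.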
